A study of Mus musculus with 7 samples.

Results

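The subject is a group of 10 genes by which mouse hematopoietic stem and progenitor cells are recognised: Cd34, Procr, Fgd5, Slamf1, Cd48, Esam, Thy1, Cd27, Tek and Cd244a. They were chosen by symbol, and all 10 had a row among the 28987 genes of the deposited table. RNA had been sequenced from bone marrow of individual C57BL/6 mice in 7 libraries. Of these, 3 came from stem and progenitor cells (HSC/P) enriched with CD117, the protein of Kit, and then sorted for the mutant clone: 2 of mice with mutant RUNX1 and overexpressed HMGA2 (RUNX1mut/HMGA2-OE) and 1 of mice with overexpressed HMGA2 alone (HMGA2-OE). The other 4 came from sorted Ly6G+ myeloid cells, 1 each of RUNX1mut/HMGA2-OE, RUNX1mut, HMGA2-OE and Control mice. All 3 HSC/P libraries thus carry HMGA2-OE, and no Ly6G+ genotype has a replicate. No source used here gives the RUNX1 allele, the promoter that drives HMGA2 or the age of the mice.

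These genes are used together because no single one marks a blood stem cell. In mouse marrow the SLAM receptor CD150 (Slamf1) is kept on stem cells while CD48 appears on multipotent and committed progenitors, so that CD150-positive, CD48-negative cells are rich in stem cells. CD34 is low on the most primitive adult mouse stem cells and rises on their multipotent progeny, and CD27 is carried by progenitors and part of the stem cells. Procr encodes the endothelial protein C receptor, Esam an immunoglobulin-family adhesion molecule and Tek the angiopoietin receptor TIE2, and all of these are shared by stem cells and endothelium. Thy1 encodes a glycolipid-anchored protein found at low level on mouse stem cells and at high level on T cells, and Cd244a encodes the CD48 receptor 2B4 of natural killer and other blood cells. Fgd5 is used as a stem cell reporter gene, although its product, an exchange factor for the GTPase CDC42, lies inside the cell.

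By GENCODE M21 on mm10 each of them is a protein-coding gene. Cd244a (chromosome 1, 171559193 to 171609746), Cd48 (171682009 to 171705258) and Slamf1 (171767127 to 171801184) are neighbours on the plus strand within the SLAM gene cluster, and Cd34 lies farther along chromosome 1 (194938819 to 194961279, plus strand). Procr is on chromosome 2 (155751117 to 155755471, plus strand), Tek on chromosome 4 (94739289 to 94874976, plus strand), and Fgd5 (91978878 to 92076004, plus strand) and Cd27 (125232622 to 125237010, minus strand) are on chromosome 6. Esam (37528078 to 37538319) and Thy1 (44043384 to 44048579) are on the plus strand of chromosome 9. The Cd27 locus lies within Vamp1 on the opposite strand, Cd244a overlaps Ly9 and Fgd5 overlaps 4930466I24Rik, both on the opposite strand. Whether the reads were assigned by strand is not given, so the values of these pairs may not be separate.

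RefSeq promoters (GRCm38.p6, 250 bases before to 50 after the start) matched 8 of the 10 genes, the others being Esam and Thy1. The windows were read for the RUNX core TGTGGT or TGCGGT, the GATA core AGATAA or TGATAA and the ETS core GGAAGT, on both strands. The Cd48 window held 1 RUNX core, 76 bases before the start, and 1 ETS core, the Slamf1 and Tek windows held 1 GATA core each, and the 5 other windows held none of them. None of these matches overlapped another. A RUNX core was in 22.4% of all 32817 promoter windows, a GATA core in 18.6% and an ETS core in 23.8%. The windows of Cd48 and its neighbour Slamf1 are shown because these neighbours differed most plainly in their behaviour below, and that of Cd34 because it was the most abundant of the 10 genes in RUNX1mut/HMGA2-OE HSC/P. Capitals mark the RUNX core. The windows are chr1:171681742-171682041 for Cd48, chr1:171766882-171767181 for Slamf1 and chr1:194938571-194938870 for Cd34, all on the plus strand.
Cd48: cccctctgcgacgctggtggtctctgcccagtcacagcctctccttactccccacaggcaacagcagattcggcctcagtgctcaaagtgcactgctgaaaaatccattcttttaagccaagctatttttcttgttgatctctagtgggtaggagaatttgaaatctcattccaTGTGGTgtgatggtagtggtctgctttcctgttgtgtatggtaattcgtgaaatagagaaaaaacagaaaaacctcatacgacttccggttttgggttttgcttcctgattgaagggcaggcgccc
Slamf1: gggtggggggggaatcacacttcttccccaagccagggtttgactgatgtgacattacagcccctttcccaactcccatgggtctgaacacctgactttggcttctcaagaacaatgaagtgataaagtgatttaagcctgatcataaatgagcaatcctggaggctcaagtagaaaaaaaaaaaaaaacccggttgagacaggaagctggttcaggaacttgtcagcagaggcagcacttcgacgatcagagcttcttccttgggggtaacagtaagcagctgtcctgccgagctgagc
Cd34: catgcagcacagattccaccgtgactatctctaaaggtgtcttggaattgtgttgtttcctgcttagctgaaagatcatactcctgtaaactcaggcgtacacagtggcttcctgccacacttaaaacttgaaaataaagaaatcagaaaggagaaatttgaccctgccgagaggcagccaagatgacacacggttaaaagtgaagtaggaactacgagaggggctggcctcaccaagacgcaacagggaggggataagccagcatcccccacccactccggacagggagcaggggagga

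Values are in TPM, a unit normalized for transcript length and library total, and read depth is unknown. The labels were first checked on the altered genes. Runx1 was at 219 and 225 TPM in RUNX1mut/HMGA2-OE HSC/P, against 18.9 TPM in HMGA2-OE HSC/P. Among Ly6G+ libraries it reached 21.2 TPM in RUNX1mut/HMGA2-OE and 11.6 TPM in RUNX1mut, against 3.36 TPM in HMGA2-OE and 3.85 TPM in Control. Hmga2 reached 176, 138 and 147 TPM in the HSC/P libraries, all of which overexpress it. Among Ly6G+ libraries Hmga2 reached 12.1 TPM in RUNX1mut/HMGA2-OE and 3.72 TPM in HMGA2-OE, against 1.36 TPM in RUNX1mut and 1.45 TPM in Control. The neutrophil gene S100a8 took 40.2% to 55.0% of TPM in 3 Ly6G+ libraries but 3.11% in RUNX1mut/HMGA2-OE Ly6G+, so TPM of other genes are pressed down unequally. For tests the libraries were therefore scaled to each other. Between HSC/P and Ly6G+ this scaling matters: without it the median gene was 1.46 higher in HSC/P on the log2 scale, and with it 0.10 higher. All 12 listed neutrophil markers fell in HSC/P against Ly6G+ after scaling, and Kit was at 155, 134 and 61.8 TPM in the HSC/P libraries, against 3.43 to 5.20 TPM in Ly6G+ cells. In a bulk sample, fewer cells of a type and less RNA per cell cannot be told apart.

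**Figure D1:**
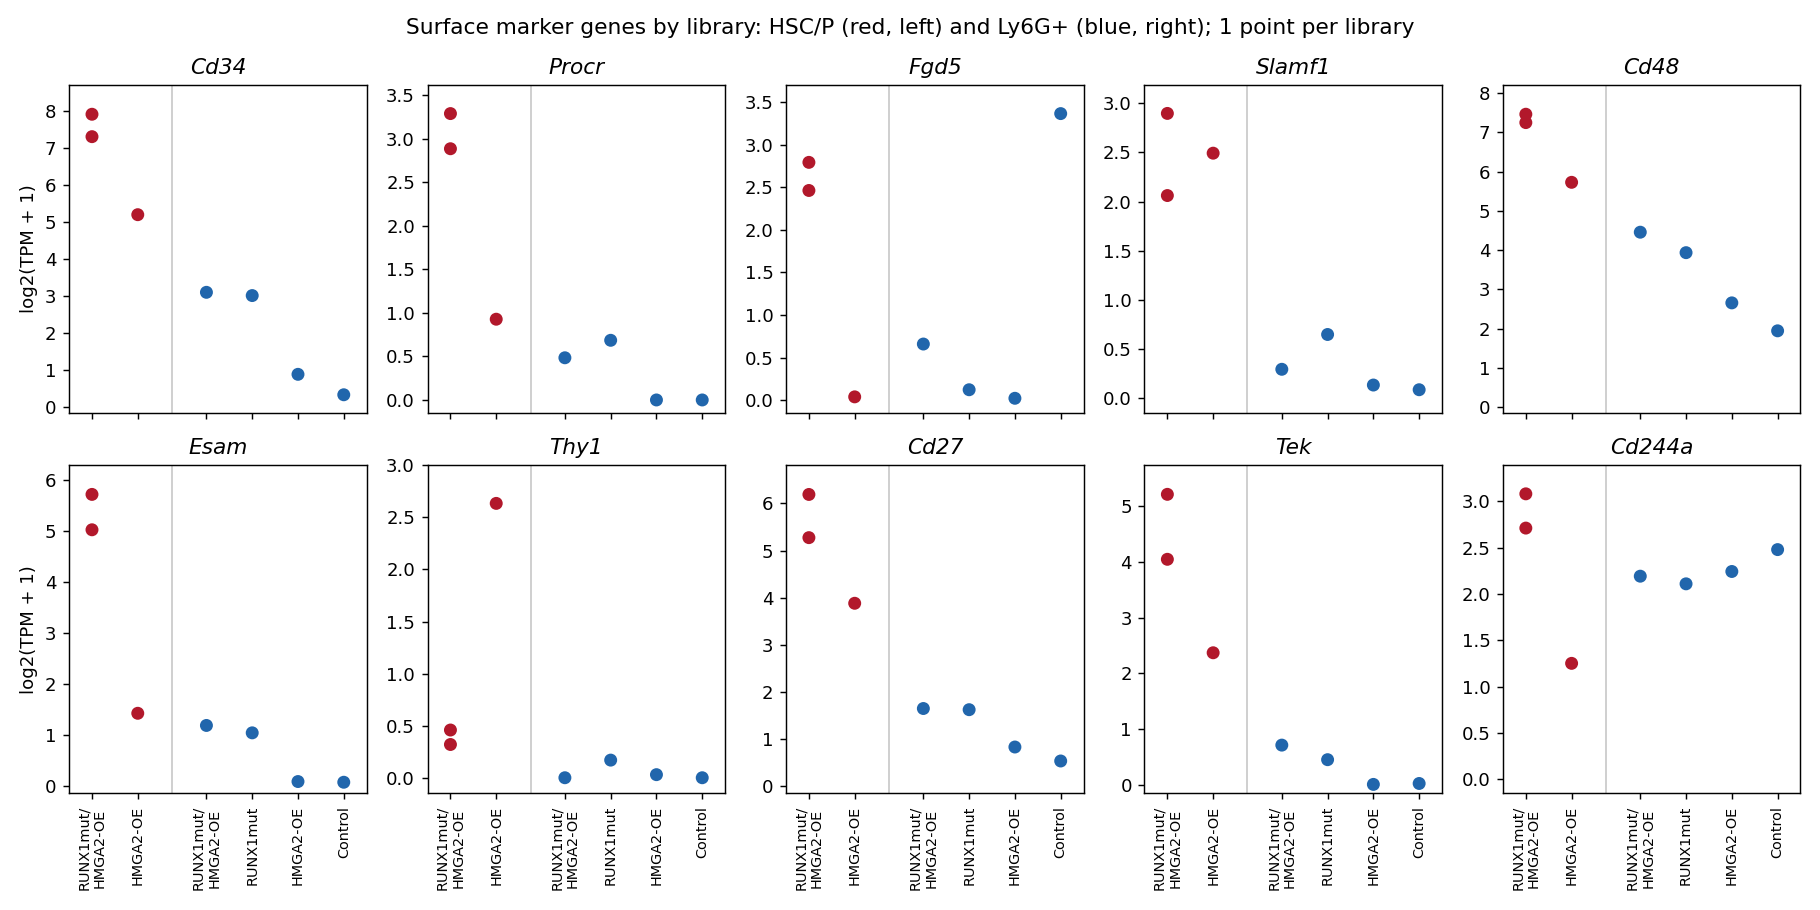
Level of each gene as log2(TPM + 1) on the vertical axis in the 7 libraries, 1 point each, with the 3 HSC/P libraries in red and the 4 Ly6G+ libraries in blue. In HSC/P the RUNX1mut/HMGA2-OE pair lies above HMGA2-OE for 8 of the 10 genes, Slamf1 of the pair lies on both sides of it and Thy1 lies below it, and in Ly6G+ cells Fgd5 stands out in Control at 9.31 TPM.

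The first comparison asked how the genes differ between progenitors and mature cells. As deposited, 8 of the 10 genes were higher in each HSC/P library than in every Ly6G+ library. The 12881 genes compared do not include Thy1. Of the 9 members among them 7 were separated in this way, as were 66.5% of the 12881. After scaling over all libraries 4 of the 10 kept that separation, namely Cd34, Slamf1, Cd27 and Tek, against 35.1% of genes. The summed TPM of the 10 genes was 561 and 454 in RUNX1mut/HMGA2-OE HSC/P and 119 in HMGA2-OE HSC/P, against 37.4 in RUNX1mut/HMGA2-OE Ly6G+, 29.6 in RUNX1mut, 10.9 in HMGA2-OE and 17.6 in Control. Cd34 and Cd48 together made up most of that sum in every HSC/P library.

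In the 5 libraries with HMGA2-OE, with RUNX1mut as a covariate, 7 genes rose in HSC/P over Ly6G+ by the limma test with Benjamini-Hochberg adjustment over 12686 genes. In the same test 32.2% of all genes rose and 32.5% fell, so such a call is common here. Fgd5, Procr, Slamf1 and Tek reached 1 TPM in these libraries only in HSC/P and so entered the test through the group where they are high, and of the 5 others 4 rose. Cd34 differed by 2.88 ± 0.28 on the log2 scale (SE of the fit; adjusted p = 0.00188), Tek by 2.41 ± 0.46 (0.0118), Cd27 by 2.20 ± 0.49 (0.0177) and Esam by 2.05 ± 0.60 (0.0397). Slamf1 differed by 1.46 ± 0.30 (adjusted p = 0.0144), Procr by 1.25 ± 0.34 (0.0319) and Cd48 by 1.19 ± 0.23 (0.0122). Fgd5 (0.58 ± 0.34, adjusted p = 0.194) and Cd244a (-1.52 ± 0.63, adjusted p = 0.0949) did not pass, and Thy1 was below the filter of 1 TPM in 2 libraries. At an unadjusted p under 0.05, 35.1% of all genes were higher and 34% lower. Without the RUNX1mut/HMGA2-OE Ly6G+ library only Cd34 and Cd48 rose, 2 of the 9 instead of 7, and Cd244a fell, at -3.04 (adjusted p = 0.00499).

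Among the other surface antigens of these cells, 10 of 20 rose in HSC/P and 6 fell. Eng, the TGF-beta coreceptor endoglin, differed by 4.03 ± 0.15, the integrin gene Itga2b (CD41) by 3.40 ± 0.54, the lectin-family gene Cd93 by 2.73 ± 0.21 and Kit by 2.64 ± 0.46. Vwf, Podxl, Flt3, Ctnnal1 and Itga6 rose as well, by 1.21 to 2.39. Of these, Podxl, Flt3 and Ctnnal1 reached 1 TPM in the tested libraries only in HSC/P and so entered the test through the group where they are high. The genes that fell included the Fc receptor gene Fcgr3 (-4.86 ± 0.29), Cd9 (-3.72 ± 0.54), Alcam (-2.26 ± 0.37), Cd63 (-1.84 ± 0.21) and Il18r1 (-1.84 ± 0.37), several of which neutrophils also carry. The list's median was 1.06 and that of all genes 0.10. Of the other SLAM family genes 0 of 5 tested rose and Cd84 fell (-3.39 ± 0.19). Of 9 partner genes tested, the ligand gene Angpt1 (4.60 ± 0.22), the thrombin receptor gene F2r (3.496 ± 0.35) and the TIE2 co-receptor gene Tie1 (2.38 ± 0.52) rose, while Cdc42 (-2.62 ± 0.14) and the adaptor genes Traf2, Traf5 and Crkl fell. Angpt1 also reached 1 TPM in the tested libraries only in HSC/P.

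The next comparison asked what the RUNX1 mutation added in HMGA2-OE progenitors, with 2 libraries against 1. As deposited, 8 of the 10 genes were higher in both RUNX1mut/HMGA2-OE libraries than in HMGA2-OE. All 8 were among the 9 that passed the filter of 1 TPM in 2 libraries, and 54.1% of all genes that passed it were higher. These 8 were at least 2-fold higher in both RUNX1mut/HMGA2-OE libraries (on TPM + 1), a rule met by 5.01% of the genes that passed the filter. Thy1 was at least 2-fold lower, a rule met by 1.86% of those genes, but Thy1 did not pass the filter itself. Fgd5 and Procr reached 1 TPM only in RUNX1mut/HMGA2-OE and so entered the test of 12226 genes through the group where they are high. No gene of the genome passed adjustment (0% called in either direction), so none of these differences is a call. At an unadjusted p under 0.05, 8.74% of all genes were higher and 6.76% lower, and the higher ones included 6 of the 7 genes here that did not enter in this way.

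Within the SLAM neighbours the pattern was uneven. Cd48 was at 175 and 151 TPM in RUNX1mut/HMGA2-OE HSC/P, against 51.9 TPM in HMGA2-OE HSC/P, a difference of 1.48 ± 0.17 (adjusted p = 0.122 in limma). Its receptor gene Cd244a was at 7.46 and 5.55 TPM in RUNX1mut/HMGA2-OE, against 1.38 TPM in HMGA2-OE (1.54 ± 0.32, adjusted p = 0.205). Both libraries of the pair thus lay above HMGA2-OE for the ligand and for the receptor. Slamf1 was at 6.45 and 3.18 TPM in RUNX1mut/HMGA2-OE, on either side of 4.63 TPM in HMGA2-OE, with a difference of -0.13 ± 0.47 (adjusted p = 0.900). Its level was 3.69% and 2.11% of that of Cd48 in RUNX1mut/HMGA2-OE, against 8.92% in HMGA2-OE.

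The adhesion genes were among those with the widest differences. Esam was at 31.4 and 51.4 TPM in RUNX1mut/HMGA2-OE HSC/P, against 1.68 TPM in HMGA2-OE HSC/P, a difference of 3.83 ± 0.34 (adjusted p = 0.114) that exceeded that of 99.9% of genes. Cd34, which encodes a sialomucin, was at 239 and 157 TPM in RUNX1mut/HMGA2-OE, against 35.8 TPM in HMGA2-OE (2.26 ± 0.32, adjusted p = 0.150). Its order against Cd48 also turned, with 1.37 and 1.04 Cd34 transcripts per Cd48 transcript in RUNX1mut/HMGA2-OE, against 0.690 in HMGA2-OE.

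The receptors differed in how closely the RUNX1mut/HMGA2-OE pair agreed. Procr was at 8.77 and 6.39 TPM in RUNX1mut/HMGA2-OE HSC/P, against 0.901 TPM in HMGA2-OE HSC/P (2.07 ± 0.33, adjusted p = 0.162). Tek was at 15.5 and 35.9 TPM in RUNX1mut/HMGA2-OE, against 4.16 TPM in HMGA2-OE (2.13 ± 0.54, adjusted p = 0.240), and replicate 2 was the higher of the pair, as for Esam. Cd27, a receptor of the TNF family, was at 72.1 and 37.7 TPM in RUNX1mut/HMGA2-OE, against 13.8 TPM in HMGA2-OE (1.71 ± 0.46, adjusted p = 0.255), and here replicate 1 was the higher. On the log2 scale of TPM + 1 the pair differed by 1.16 for Tek, 0.92 for Cd27, 0.84 for Slamf1, 0.69 for Esam and 0.60 for Cd34, and by at most 0.40 for the other 5 genes.

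Fgd5 was at 4.51 and 5.93 TPM in RUNX1mut/HMGA2-OE HSC/P, against 0.0280 TPM in HMGA2-OE HSC/P (2.54 ± 0.32, adjusted p = 0.145). Thy1 went the other way, with 0.374 and 0.248 TPM in RUNX1mut/HMGA2-OE, against 5.21 TPM in HMGA2-OE. It was not tested, because the filter asks for 1 TPM in 2 libraries. A gene that reaches 1 TPM only in the single HMGA2-OE library cannot pass it at any level. The Thy1 value of HMGA2-OE was the highest of the 7 libraries. Of the 9 T and NK cell markers, summed TPM was 11.8 and 9.63 in RUNX1mut/HMGA2-OE and 15.3 in HMGA2-OE, but they did not all go 1 way. Lower in both were Lck at 4.27 and 5.01 TPM against 5.66 TPM, Cd3d at 1.88 and 1.24 TPM against 2.09 TPM, Gzma at 0.266 and 0 TPM against 4.33 TPM, and Cd3e at 0 in both against 0.0968 TPM. Ncr1 and Klrb1c were lower as well. Higher in both were Cd4 at 2.89 and 1.73 TPM against 1.35 TPM, Cd3g at 0.831 and 0.948 TPM against 0.447 TPM, and Cd8a at 0.915 and 0.624 TPM against 0.220 TPM.

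**Figure D2:**
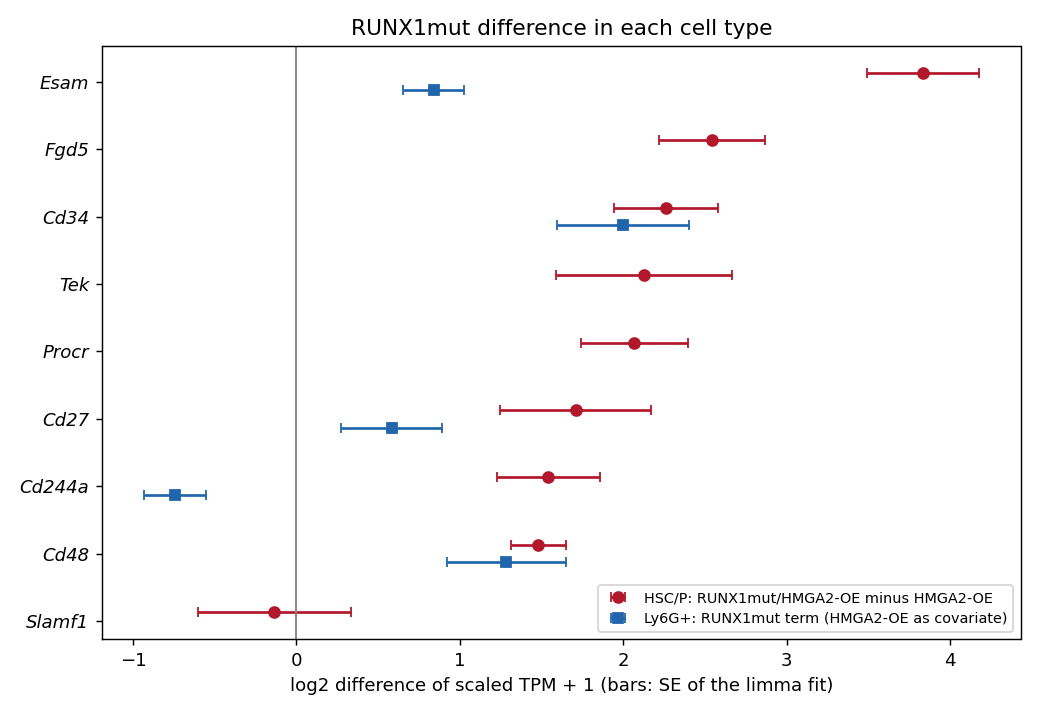
Log2 difference that goes with RUNX1mut (horizontal axis; bars are the SE of the limma fit) for each gene tested, in HSC/P as red circles (2 against 1 library) and in Ly6G+ cells as blue squares (2 against 2 libraries, HMGA2-OE as covariate). In HSC/P the differences run from 3.83 for Esam to -0.13 for Slamf1, and of the 5 genes with both points only Cd244a has them on opposite sides of 0.

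Kit, the antigen of the enrichment, was itself at 155 and 134 TPM in RUNX1mut/HMGA2-OE HSC/P, against 61.8 TPM in HMGA2-OE HSC/P. Taken relative to Kit, 8 of the 10 genes were higher in both RUNX1mut/HMGA2-OE libraries, as were 5.65% of the 12226 genes, which do not include Thy1. Cd34 stood at 155% and 117% of Kit in RUNX1mut/HMGA2-OE, against 57.8% in HMGA2-OE, and Esam at 20.3% and 38.4%, against 2.71%. The margin was narrower for Cd48 (113% and 113%, against 83.9%) and for Cd27 (46.6% and 28.2%, against 22.2%). Slamf1, at 4.16% and 2.37% of Kit in RUNX1mut/HMGA2-OE against 7.48% in HMGA2-OE, and Thy1 were lower.

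Markers of other cells also differed between these libraries. The 12 neutrophil markers summed to 18011 and 18866 TPM in RUNX1mut/HMGA2-OE HSC/P, against 63364 TPM in HMGA2-OE HSC/P, and their median log2 difference was -2.04. The 8 megakaryocyte and platelet markers summed to 850 and 2279 TPM in RUNX1mut/HMGA2-OE, against 421 TPM in HMGA2-OE, with the higher value in replicate 2, which also had more Esam and Tek. The 8 mast cell and basophil markers summed to 295 and 301 TPM, against 52.4 TPM. The 7 erythroid markers summed to 709 and 1125 TPM, against 1519 TPM, the 8 monocyte and macrophage markers to 374 and 293 TPM, against 862 TPM, and the 8 B lymphoid markers to 93.5 and 77.9 TPM, against 75.6 TPM. The 8 endothelial markers summed to 167 and 217 TPM, against 79.9 TPM. Of these, Kdr was at 6.20 and 36.4 TPM in RUNX1mut/HMGA2-OE against 0.0502 TPM in HMGA2-OE, Tie1 at 29.9 and 55.3 TPM against 5.38 TPM, Pecam1 at 49.7 and 41.8 TPM against 22.3 TPM and Egfl7 at 77.7 and 79.8 TPM against 48.1 TPM. Plvap was at 3.58 and 3.75 TPM against 3.63 TPM, Flt1 and Cdh5 stayed under 0.32 TPM, and Cldn5 was at 0 in all 3 libraries. The part of these differences in the results above was not tested.

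The partners of these receptors were read next, from a list of 12. In HSC/P 7 of the 9 tested were higher in RUNX1mut/HMGA2-OE and 0 passed adjustment. Their median was 0.47, against -0.0012 for all genes. Tie1, the co-receptor of TIE2, was at 29.9 and 55.3 TPM in RUNX1mut/HMGA2-OE, against 5.38 TPM in HMGA2-OE (2.58 ± 0.41, adjusted p = 0.162), and the ligand gene Angpt1 was at 89.96 and 120.2 TPM, against 40.1 TPM (1.21 ± 0.21, adjusted p = 0.173). Both libraries of the pair were thus higher for this receptor, its co-receptor and its ligand. F2r, the thrombin receptor through which the protein C receptor can signal, was at 87.7 and 179 TPM in RUNX1mut/HMGA2-OE, against 24.3 TPM in HMGA2-OE (2.18 ± 0.46, adjusted p = 0.206), and the thrombomodulin gene Thbd at 11.6 and 7.06 TPM, against 2.47 TPM (1.42 ± 0.39, adjusted p = 0.257). A pair of partners was singled out after their values were seen. The CD27 ligand gene Cd70 was listed at 0 in all 7 libraries, and Cdc42, the GTPase gene downstream of FGD5, was at 282 and 286 TPM in RUNX1mut/HMGA2-OE and 266 TPM in HMGA2-OE.

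Of 9 other SLAM family genes listed, 8 were in the table and 5 were tested. Of the 5 tested, 4 were higher and 1 lower, 0 passed adjustment, and the median was 0.34, against -0.0012 for all genes. The largest was Slamf8 (0.86 ± 0.40, adjusted p = 0.408), followed by Ly9 (0.42 ± 0.23, adjusted p = 0.468), which overlaps Cd244a, and by Slamf6 (-0.39 ± 0.34, adjusted p = 0.621). Slamf8 reached 1 TPM only in RUNX1mut/HMGA2-OE and so entered the test through the group where it is high. Cd84, the most abundant of them, was at 40.3 and 40.9 TPM in RUNX1mut/HMGA2-OE, against 28.8 TPM in HMGA2-OE (0.34 ± 0.14, adjusted p = 0.382).

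Other surface antigens of stem and progenitor cells were higher in RUNX1mut/HMGA2-OE HSC/P for 15 of 20 and lower for 5, with 0 past adjustment. Their median was 0.66, against -0.0012 for all genes. Itga2b (CD41), a marker of megakaryocyte-biased cells, was at 313 and 639.6 TPM in RUNX1mut/HMGA2-OE, against 22.5 TPM in HMGA2-OE (4.11 ± 0.46, adjusted p = 0.122). Podxl, a relative of Cd34, was at 9.17 and 19.0 TPM in RUNX1mut/HMGA2-OE, against 1.62 TPM in HMGA2-OE (2.34 ± 0.48, adjusted p = 0.205). Robo4, a guidance receptor gene of stem cells and endothelium, was at 3.80 and 4.47 TPM in RUNX1mut/HMGA2-OE, against 0.616 TPM in HMGA2-OE (1.59 ± 0.30, adjusted p = 0.194). Robo4 and Emcn, both among the 15, reached 1 TPM only in RUNX1mut/HMGA2-OE and so entered the test through the group where they are high. Ly6a and Flt3 were singled out after their values were seen. The stem cell antigen gene Ly6a (SCA-1) was at 20.7 and 9.74 TPM in RUNX1mut/HMGA2-OE, against 31.2 TPM in HMGA2-OE (-1.22 ± 0.51, adjusted p = 0.375). For Flt3, a receptor gene of lymphoid-primed progenitors, 13.6 and 8.06 TPM in RUNX1mut/HMGA2-OE lay on either side of 8.59 TPM in HMGA2-OE.

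**Figure D3:**
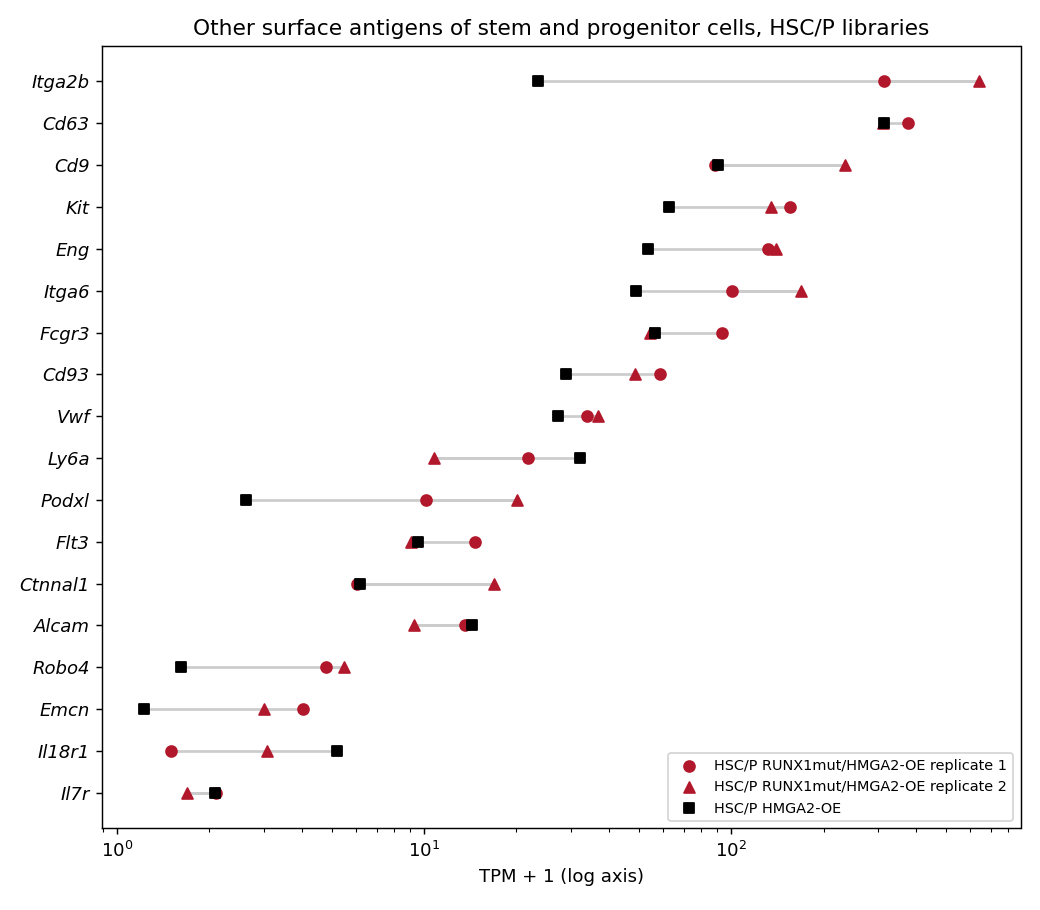
TPM + 1 (log axis) of other surface antigens in the HSC/P libraries, with RUNX1mut/HMGA2-OE replicate 1 as red circles, replicate 2 as red triangles and HMGA2-OE as black squares. Both red symbols lie to the right of the square for Itga2b, Podxl and Robo4, and to the left of it for Ly6a and Il18r1.

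In Ly6G+ cells the 10 genes were low, and only Cd48 and Cd244a were above 1 TPM in all 4 libraries. The comparison here was of RUNX1mut with its counterpart, without and with HMGA2-OE. Cd34 was at 7.61 TPM in RUNX1mut/HMGA2-OE and 7.10 TPM in RUNX1mut, against 0.858 TPM in HMGA2-OE and 0.268 TPM in Control. Cd48 was at 20.9 TPM in RUNX1mut/HMGA2-OE and 14.3 TPM in RUNX1mut, against 5.30 TPM in HMGA2-OE and 2.85 TPM in Control. These were the only members at least 2-fold higher in both pairs (on TPM + 1), a rule met by 4.85% of the 9820 genes. After scaling within the Ly6G+ libraries Cd34 met it (1.38 and 2.62 on the log2 scale) but Cd48 did not (0.72 with HMGA2-OE and 1.85 without it). The rule was then met by 1.49% of the 9820 genes. As deposited, 7 of the 10 genes were higher in both libraries with RUNX1mut than in both without it. Only 5 of the 10 were among the 9820 genes, and of these 4 were higher, but so were 60.1% of the 9820. For Slamf1 this turned on the scaling. Scaled over all 7 libraries, it was at 0.259 in RUNX1mut/HMGA2-OE against 0.268 in HMGA2-OE. Scaled within the Ly6G+ libraries, RUNX1mut/HMGA2-OE was higher by 0.0026 on the log2 scale.

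The other genes separated in this way were low. Cd27 was at 2.14 TPM in RUNX1mut/HMGA2-OE and 2.09 TPM in RUNX1mut, against 0.782 TPM in HMGA2-OE and 0.451 TPM in Control. Esam was at 1.27 TPM in RUNX1mut/HMGA2-OE and 1.05 TPM in RUNX1mut, against 0.0584 TPM in HMGA2-OE and 0.0482 TPM in Control. Procr, Slamf1 and Tek stayed under 1 TPM in all 4 libraries. Thy1 was listed at 0 in RUNX1mut/HMGA2-OE and Control and did not exceed 0.124 TPM.

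In the additive limma fit to the 4 Ly6G+ libraries, 5 of the 10 genes were tested and none passed, as for all 9820 genes (0% called). The RUNX1mut difference was 1.998 ± 0.403 for Cd34, 1.29 ± 0.37 for Cd48, 0.84 ± 0.19 for Esam, 0.58 ± 0.31 for Cd27 and -0.74 ± 0.19 for Cd244a, with adjusted p between 0.331 and 0.456. Cd34, Cd27 and Esam reached 1 TPM only in the libraries with RUNX1mut and so entered the test through them. Of the 2 others, Cd48 was higher and Cd244a lower at an unadjusted p under 0.05, as were 7.71% and 6.62% of genes. Without scaling, Cd34 passed (2.44, adjusted p = 0.0101), in a setting where the median of all genes was 0.58 higher in RUNX1mut. For the HMGA2-OE term the differences ran from -0.15 ± 0.19 for Cd244a to 0.49 ± 0.37 for Cd48, and 0 of the 5 reached an unadjusted p under 0.05, against 3.34% higher and 3.17% lower among all genes (0% called). At least 2-fold higher with HMGA2-OE in both pairs were 0 of the 10, and so 0 of the 5 tested, against 0.499% of the 9820 genes. Of 14 other antigens tested, 3 were higher with RUNX1mut and 3 lower at that unadjusted threshold, with Itga2b at 2.76 ± 0.55. Of 7 SLAM family genes 1 was higher (Slamf7, 0.82 ± 0.15), as was 1 of 7 partners (F2r, 1.39 ± 0.19), and 0 of these lists passed adjustment.

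**Figure D4:**
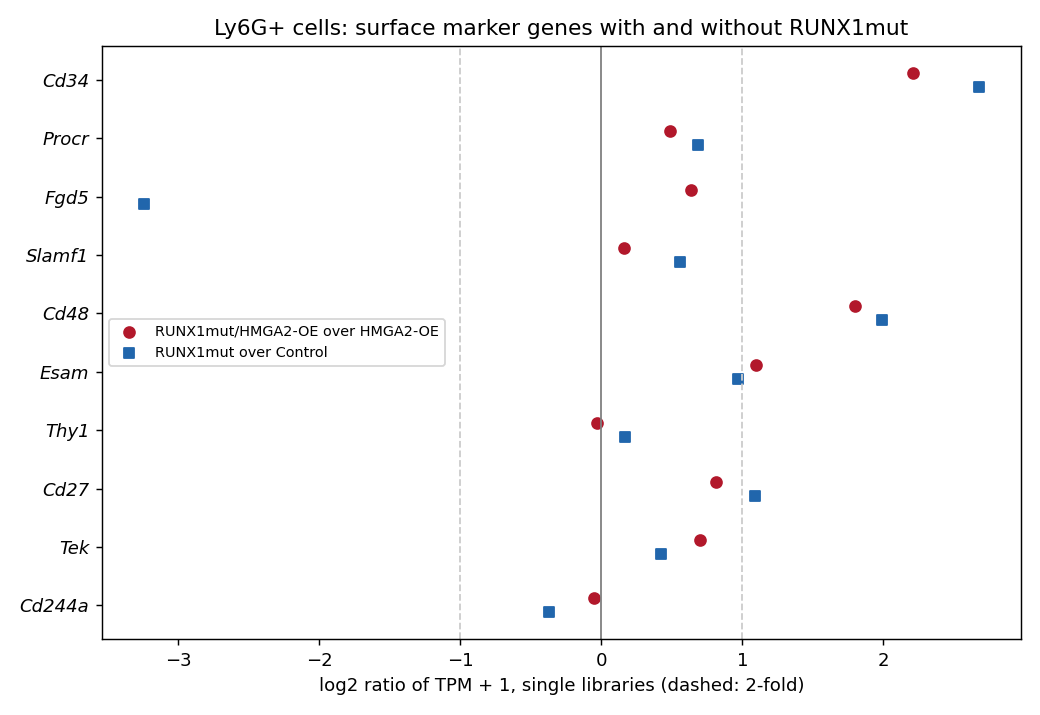
Log2 ratio of TPM + 1 between single Ly6G+ libraries for the 10 genes, with RUNX1mut/HMGA2-OE over HMGA2-OE as red circles and RUNX1mut over Control as blue squares; dashed lines mark 2-fold. Cd34 (2.21 and 2.68) and Cd48 (1.7997 and 1.990) lie beyond 2-fold in both pairs as deposited (after scaling Cd48 does so only without HMGA2-OE), and Fgd5 lies at 0.64 with HMGA2-OE and at -3.24 without it.

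The levels in Ly6G+ cells were also set against those in progenitors of the same genotype. In RUNX1mut/HMGA2-OE, Ly6G+ cells held 3.84% of the mean HSC/P level for Cd34, 3.89% for Cd27, 3.06% for Esam, 2.49% for Tek, 4.71% for Slamf1 and 5.26% for Procr. Kit, with 3.07%, was close to these shares, whereas Cd48 stood at 12.9% and Cd244a at 54.9%. After scaling all of these shares were larger, with 10.5% for Cd34, 8.46% for Esam, 8.42% for Kit and 35.3% for Cd48, and Cd244a turned, with 151%. Kit itself was at 4.43 TPM in RUNX1mut/HMGA2-OE and 3.72 TPM in RUNX1mut Ly6G+ cells, against 3.43 TPM in HMGA2-OE and 5.20 TPM in Control. As deposited it thus did not separate the genotypes as Cd34 did. After scaling Kit was at 5.05 in RUNX1mut/HMGA2-OE and 6.64 in RUNX1mut, against 9.39 in HMGA2-OE and 11.1 in Control. It was then lower with RUNX1mut, whereas Cd34 was higher. Beside this, the megakaryocyte markers summed to 67.6 TPM in RUNX1mut/HMGA2-OE and 50.5 TPM in RUNX1mut Ly6G+ cells, against 10.5 TPM in HMGA2-OE and 17.2 TPM in Control, and the erythroid markers to 875 and 197 TPM, against 49.1 and 61.4 TPM. The part of other cells in the Ly6G+ values was not tested.

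Fgd5, Cd244a and Thy1 were not higher in both Ly6G+ libraries with RUNX1mut than in both without it. Fgd5 was at 0.580 TPM in RUNX1mut/HMGA2-OE, 0.0893 TPM in RUNX1mut and 0.0161 TPM in HMGA2-OE Ly6G+ cells, against 9.31 TPM in Control, the highest value of the 7 libraries for this gene. It rests on 1 library. Of the 4 annotated Fgd5 transcripts the shortest has 371 nt and the longest 6095 nt, and the gene table does not show which of them carried the value. Cd244a was at 3.57 TPM in RUNX1mut/HMGA2-OE, 3.32 TPM in RUNX1mut and 3.73 TPM in HMGA2-OE Ly6G+ cells, against 4.57 TPM in Control. Both Ly6G+ values with RUNX1mut thus lay below both without it. After scaling they were 4.08 and 5.92 with RUNX1mut, against 10.2 in HMGA2-OE and 9.80 in Control, and Cd244a was lower there too. Its HMGA2-OE HSC/P value of 1.38 TPM was the lowest of the 7 libraries, as deposited and after scaling. Its RUNX1mut/HMGA2-OE HSC/P values were the highest as deposited, but after scaling they were 3.14 and 2.27, against 4.08 to 10.2 in Ly6G+ cells.

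Whether RUNX1mut acted differently in the cell types was tested as an interaction in the 5 libraries with HMGA2-OE, in which no gene passed (0% called; at an unadjusted p under 0.05, 8.6% were higher and 9.51% lower). The RUNX1mut difference was larger in HSC/P than in Ly6G+ by 2.48 ± 0.37 for Cd244a (adjusted p = 0.170) and by 2.27 ± 0.56 for Esam (adjusted p = 0.234). For Cd34 it was 0.63 ± 0.52 (adjusted p = 0.571) and for Cd48 0.77 ± 0.25 (adjusted p = 0.290), but Cd34 was at -0.17 when all 7 libraries were fitted and Cd48 at -0.17 without scaling. Over both cell types RUNX1mut differed by 2.55 ± 0.60 for Esam, 1.96 ± 0.28 for Cd34, 1.53 ± 0.46 for Tek, 1.45 ± 0.34 for Fgd5, 1.27 ± 0.34 for Procr and 1.13 ± 0.23 for Cd48. None of these passed in limma (adjusted p between 0.447 and 0.620, with 0% of 12686 genes called). At an unadjusted p under 0.05, 4% of genes were higher and 3.79% lower. In the 5 libraries Fgd5 and Procr reached 1 TPM only in RUNX1mut/HMGA2-OE HSC/P. They thus entered this fit through the group where they are high.

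The order of levels over the 7 libraries can be set only against the gap of the RUNX1mut/HMGA2-OE HSC/P pair, the one replicated group, and is given after scaling. For Cd34 that pair came first. HMGA2-OE HSC/P (17.3), RUNX1mut Ly6G+ (12.7) and RUNX1mut/HMGA2-OE Ly6G+ (8.69) followed, with no step between neighbours beyond the gap of 0.65, and then HMGA2-OE (2.35) and Control Ly6G+ (0.574), each a step beyond it. As deposited, HMGA2-OE HSC/P stood beyond that gap above the Ly6G+ libraries, and HMGA2-OE and Control Ly6G+ did not differ beyond it. For Cd48 the pair was followed by RUNX1mut Ly6G+ (25.5), HMGA2-OE HSC/P (25.2) and RUNX1mut/HMGA2-OE Ly6G+ (23.9), which did not differ beyond the gap of 0.26, whereas as deposited each of these steps exceeded the gap and HMGA2-OE HSC/P was the highest of them. HMGA2-OE (14.5) and Control Ly6G+ (6.10) came last on both scales. For Slamf1 no step between neighbours exceeded the gap of 0.70 after scaling, while as deposited the step between HSC/P and Ly6G+ did. For Esam, HMGA2-OE HSC/P (0.813) did not differ beyond the gap of 0.63 from RUNX1mut/HMGA2-OE Ly6G+ (1.45), nor did it as deposited, when it was the higher of them.

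Genes of like pattern were sought for the 5 genes that reached 10 TPM, as the smallest root mean square difference between centred profiles of log2(TPM + 1) over the 7 libraries. Tek had the closest ones, Homer3 (0.22), its co-receptor gene Tie1 (0.22) and Il12a (0.23). For Esam they were F2rl2, encoding a thrombin receptor of the protease-activated family (0.29), Otos (0.33) and Cd180 (0.36). For Cd27 they were Afap1l1 (0.31), the adhesion receptor gene Adgrl4 (0.31) and the phospholipase gene Plcg1 (0.32). Cd34 was nearest to Serpina3g (0.33), the cystatin gene Cst7 (0.34) and Tmem176b (0.39), and Cd48 to the GTPase genes Gimap6 (0.33) and Gimap1 (0.36) and to Mfng (0.35). These are descriptions of 7 libraries that share the difference between cell types.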

How the data were processed

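RNA was measured in 7 libraries of 6 groups. The authors deposited 1 table of TPM; the unit was read from the values, which are not whole and sum to between 896820 and 993009 a library. Per the submitters' processing notes, bcl2fastq, CASAVA 1.8, kallisto and mm10 were used, and no source used here gives the annotation release. Symbols came from GENCODE M21, for 27458 of 28987 identifiers.

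Tests used limma 3.58.1 (R 4.3.3) on log2(scaled TPM + 1) with trended variances, two-sided, with Benjamini-Hochberg adjustment over all genes of a fit at 0.05. A gene entered a fit when 2 or more of its libraries reached 1 TPM. Scaling divided each library by a trimmed mean of its log ratios (trims 0.3 and 0.05, no weights). Such fold changes understate those of low genes. Residual degrees of freedom were 2 in the additive fit of 5 libraries and 1 in the HSC/P, Ly6G+ and interaction fits. In HSC/P only the RUNX1mut/HMGA2-OE replicates give a spread, which is taken to hold for the single HMGA2-OE library too. Libraries came from individual mice, per the labels. The procedure was also run on data simulated from the fitted variances, with changes set only in genes of higher level. That run does not cover genes of low level. Figures used Python 3.11.15 and matplotlib 3.10.9.

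The members and lists were chosen with earlier results of these data known. All 10 genes are given in every library; of each list, the genes that passed a test are named, or up to 4 with the largest differences. Some genes of the lists are counted but not reported here by name.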

Additional observations from a re-analysis of the deposited data

Results flagged for a closer look

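Fgd5 in Ly6G+ cells differed in opposite directions with RUNX1mut, by -3.24 on the log2 scale of TPM + 1 in RUNX1mut over Control and by 0.64 in RUNX1mut/HMGA2-OE over HMGA2-OE. The difference between these pairs was not tested, since each has 1 library a genotype, and the first rests on 9.31 TPM in Control.

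Cd244a was higher in both RUNX1mut/HMGA2-OE HSC/P libraries than in HMGA2-OE HSC/P (by 1.54 in the scaled fit) and lower with RUNX1mut in both Ly6G+ pairs. As deposited the pairs were at -0.05 with HMGA2-OE and -0.37 without it, and after scaling at -0.97 and -0.51. The interaction in the 5 libraries with HMGA2-OE was 2.48 ± 0.37 and did not pass in limma (adjusted p = 0.170).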

How the results depend on the processing

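Without scaling, 8170 genes were higher and 1126 lower in HSC/P against Ly6G+, RUNX1mut over both cell types had 78 genes higher and 10 lower (with 2 of the surface marker genes higher, Cd34 and Esam), RUNX1mut in HSC/P had 1 gene higher, RUNX1mut in Ly6G+ had 101 higher and 32 lower (1 marker gene higher, Cd34), and HMGA2-OE in Ly6G+ had 19 higher and 42 lower. Directions also turned: Slamf1 over both cell types was at 0.061, Cd48 in the interaction at -0.17 and Esam with HMGA2-OE at 0.079. With all 7 libraries, HMGA2-OE in Ly6G+ had 9 genes higher and 41 lower, and RUNX1mut over both cell types turned for Cd244a (-0.080), Slamf1 (0.19) and Fgd5 (-0.40), as did the interaction of Cd34 (-0.17). With no filter the interaction had 1157 genes higher and 2093 lower (1 marker gene lower, Thy1), and with a filter of 5 TPM 1 gene higher. Esam no longer passed in HSC/P against Ly6G+ with a pseudocount of 2 (adjusted p = 0.0583) or no filter (0.0804), nor Procr with no filter (0.0653). The cause of these shifts was not tested. Scaled levels were added after seeing the data; on them 1 marker gene instead of 2 was at least 2-fold higher in both Ly6G+ RUNX1mut pairs.

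Leaving out each library in turn, marker genes higher in HSC/P against Ly6G+ numbered 2 to 8 and lower 0 to 1, and genes lower over both cell types 0 to 1. Fgd5 in HSC/P against Ly6G+ ranged from -0.063 to 1.17. The interaction ranged from -1.09 to 0.60 for Cd34 and from -0.56 to 0.70 for Cd48, RUNX1mut in HSC/P from -0.45 to 0.21 for Slamf1, and RUNX1mut over both cell types from -1.17 to 1.44 for Cd244a and from -0.26 to 0.11 for Slamf1. HMGA2-OE in Ly6G+ ranged from -0.46 to 0.077 for Cd244a, -0.47 to 0.70 for Cd27, -0.50 to 1.14 for Cd34, -0.091 to 1.15 for Cd48 and -0.25 to 0.079 for Esam. For the HSC/P, Ly6G+ and interaction tests these fits took in all remaining libraries, and without HMGA2-OE HSC/P the RUNX1mut difference in HSC/P and the interaction had no value. No paired analysis was possible because the groups compared share fewer than 2 replicate numbers. Read depth is unknown, so the counting error of levels under 1 TPM cannot be given.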
